A study of Mus musculus with 6 samples.

Results

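Genes that mark the position of liver sinusoidal endothelial cells (LSECs) along the liver lobule were compared between *Txnip*-/- and wild-type (WT) mice. The 10 genes were taken by symbol from the deposited count files, which list 23282 rows. They are 6 genes of LSECs near the central vein (*Wnt2*, *Wnt9b*, *Rspo3*, *Kit*, *Cdh13* and *Fabp4*, called pericentral) and 4 genes of LSECs near the portal tract (*Efnb2*, *Ltbp4*, *Ntn4* and *Adgrg6*, called periportal). The zone of each gene comes from what is known of mouse liver, because RNA of all LSECs of a preparation was measured together and no library was split by zone. The series holds 3 libraries from *Txnip*-/- LSECs and 3 from WT LSECs. *Txnip*-/- mice lack the gene for thioredoxin-interacting protein in all cells of the body and were on a C57BL/6J background, and the WT mice were C57BL/6J. The sources give no treatment, age or sex for the mice behind these libraries. LSECs had been taken from collagenase-perfused livers with a density gradient and magnetic beads against CD146, a protein of endothelial cells. The isolation described by the study ends with culture of the selected cells, and whether the cells of these libraries were cultured before RNA was taken is not stated, so the levels may be those of cultured LSECs. The labels number 3 samples per genotype without saying that each came from a separate mouse, so the p-values below measure the spread between these samples.

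In the liver, endothelial cells of the central vein and of the neighbouring sinusoids secrete Wnt2, Wnt9b and R-spondin 3. Wnt ligands bind Frizzled receptors and the co-receptors LRP5 and LRP6 on hepatocytes and stabilise β-catenin. R-spondins bind LGR4 and LGR5 and remove the ubiquitin ligases ZNRF3 and RNF43, which would otherwise clear Frizzled receptors from the cell surface. Hepatocytes close to the central vein therefore carry the Wnt-driven pericentral programme, and the loss of endothelial Wnt ligands or of R-spondin 3 is known to weaken it.

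The libraries held 9147764 to 10193952 counts for *Txnip*-/- LSECs and 9699159 to 9951078 for WT LSECs. QuantSeq makes reads from the 3′ end of each transcript, so a count does not grow with transcript length. Levels are given in CPM, counts scaled to one library size with TMM factors. The floor of detection was taken as 3 counts, which equalled 0.294 to 0.328 CPM before the TMM factors. *Txnip* had 191 to 269 counts in the *Txnip*-/- libraries and 1901 to 2019 in the WT libraries, so all 6 libraries matched their labels. The LSEC genes *Stab1*, *Stab2*, *Lyve1* and *Mrc1* and the endothelial genes *Pecam1* and *Cdh5* were present in every library. Of 10 LSEC markers, all had a lower mean in *Txnip*-/- LSECs. Of the 10, 2 were called, beside 1.44% of all genes tested, *Stab1* (log2 fold change -0.46, adjusted p = 0.00984, edgeR) and *Mrc1* (-0.76, adjusted p = 0.000718, edgeR). *Stab1* was no longer called without *Txnip*-/- replicate 2 or 3 (adjusted p = 0.0839 and 0.0739, edgeR), and *Mrc1* not with WT replicates 1 and 2 both left out (adjusted p = 0.106, edgeR). DESeq2 called 4 of these markers. Kupffer cell markers, given below, fell in the same libraries, and their part in the lower LSEC markers was not tested. An exon of *Nt5dc2* lies across the 3′ end of *Stab1* on the other strand, and whether the counting kept the strands apart is not given in the sources used here. WT replicates 1 and 2 resembled each other more than any other library. Their chi-square per degree of freedom was 3.93 against each other, and 37.0 and 40.3 against WT replicate 3. WT replicate 3 was closer to *Txnip*-/- replicates 1, 2 and 3 (13.25, 13.95 and 17.12) than to the other WT libraries. By this measure the libraries did not group by genotype, whereas the study reported a clear separation of the genotypes in its own cluster analysis. WT replicates 1 and 2 stood at 28.8 to 44.4 against the *Txnip*-/- libraries. *Rn45s*, the precursor of ribosomal RNA, held 10.03% and 9.68% of their counts and 16.9% to 18.6% of the counts in the other 4. It was among the genes entering the chi-square, and its part in those values was not tested.

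Among the 10 zonation genes, *Rspo3* rose in *Txnip*-/- LSECs, 8 genes were tested without passing the threshold, and *Wnt9b* lay too close to the floor to be tested. A gene was called when its adjusted p was under 0.05 and its fold change above 1.3 in edgeR's quasi-likelihood test over all 11583 genes that passed the filter on low counts. By this rule 1 of the 5 tested pericentral genes and 0 of the 4 tested periportal genes were called, beside 1.44% of all genes tested. At an unadjusted p under 0.05 there was 1 gene in each zone, and the counts of called genes were also 1 and 0 with DESeq2 and with limma-trend. For 3 genes the 2 genotypes did not overlap (*Rspo3* and *Efnb2* higher, *Kit* lower), beside 17.4% of all genes tested. The median log2 fold change was 0.27 over the 5 pericentral genes and -0.23 over the 4 periportal genes, beside -2.75e-05 over all genes tested. The first is the value of *Wnt2* and the second lies between *Ltbp4* and *Adgrg6*, none of them called. Summed levels differed by a log2 of -0.0089 for the pericentral and 0.20 for the periportal genes, without a test. The medians and sums therefore give no common direction for either zone.

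**Figure D1:**
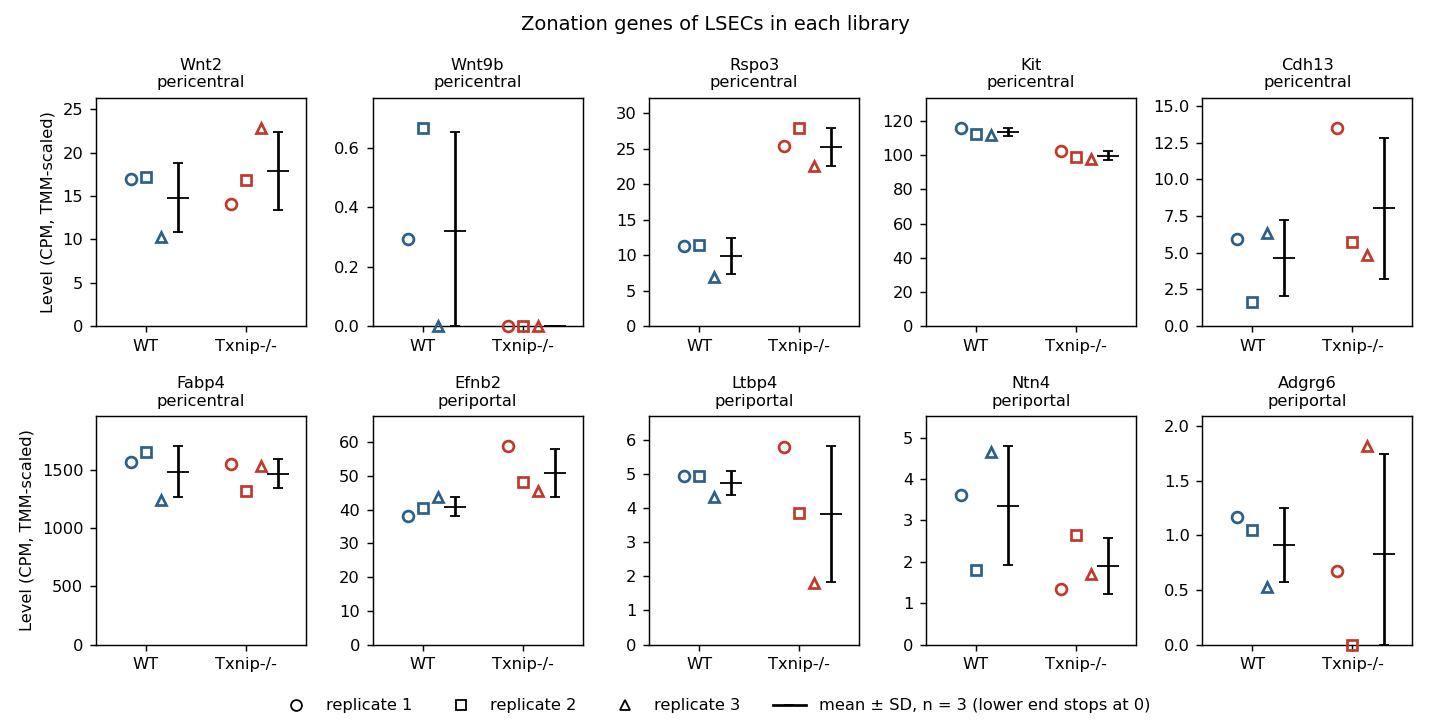
Level of each of the 10 zonation genes (CPM scaled with TMM factors, each panel with its own axis from 0) in the 3 WT and the 3 *Txnip*-/- libraries, with the mean and SD of each genotype beside the points. *Rspo3* lies between 22.6 and 27.9 CPM for *Txnip*-/- and between 6.88 and 11.4 CPM in WT LSECs, while for 7 of the 10 genes the genotypes overlap.

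The ligands and their partner are given first. *Rspo3* encodes R-spondin 3, the secreted protein that strengthens Wnt signals at the receptor. The gene has 5 exons and occupies bases 29452416 to 29535867 of chromosome 10, minus strand (this and all later positions in GRCm38). Its counts were 227, 274 and 211 in *Txnip*-/- replicates 1, 2 and 3, and 116, 120 and 65 in WT replicates 1, 2 and 3. All 3 *Txnip*-/- libraries lay above all WT libraries, and WT replicate 3 was the lowest of the 6. The level was 25.3 ± 2.69 CPM for *Txnip*-/- and 9.87 ± 2.59 CPM for WT (SD, n = 3 per genotype). This was a 2.56-fold difference (95% interval 1.84 to 3.55), with a log2 fold change of 1.35, a standard error of 0.23 and an adjusted p of 0.00302 in edgeR's test, the 56th smallest p of the 11583 genes. The call held in each of 16 alternative fits, with log2 fold changes from 1.152 without WT replicate 3 to 1.878 with both other WT libraries left out. The study drew its own RNA-seq results from these same libraries, so the direction of *Rspo3* here is not independent evidence.

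*Wnt2* encodes a Wnt ligand made by pericentral LSECs and lies on chromosome 6 from 17988940 to 18030585 on the minus strand. Its counts were 126, 165 and 214 for *Txnip*-/- against 174, 181 and 97 for WT. WT replicate 3 was again the lowest, but WT replicates 1 and 2 lay within the range of the *Txnip*-/- libraries. The level was 17.9 ± 4.51 CPM for *Txnip*-/- and 14.8 ± 3.95 CPM for WT (log2 fold change 0.27, 95% interval -0.25 to 0.79, adjusted p = 0.756, edgeR). As a ratio of *Txnip*-/- to WT the interval runs from 0.843 to 1.73.

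*Wnt9b*, the ligand gene of central vein endothelium, lies on chromosome 11 from 103727364 to 103749821 on the minus strand. It had 0 counts in each *Txnip*-/- library and 3, 7 and 0 counts in the WT libraries. The *Txnip*-/- libraries therefore allow up to 0.306 to 0.335 CPM by counting error alone, the level of 3 counts with the TMM factors. The WT mean was 0.32 CPM, so a difference was not detectable at this depth and no fold is given.

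Since *Rspo3* and *Wnt2* are both pericentral, their counts were set against each other within each library, a comparison that does not depend on library scaling and was chosen after seeing the values. The libraries held 1.80, 1.66 and 0.986 counts of *Rspo3* for each count of *Wnt2* in *Txnip*-/- replicates 1, 2 and 3. In the WT libraries the ratio was 0.667, 0.663 and 0.670, so that the 3 WT libraries agreed closely although WT replicate 3 had low counts of both genes. The mean log2 ratio was higher in *Txnip*-/- LSECs by 1.11, with all 3 *Txnip*-/- libraries above all 3 WT libraries. This ratio is given as a description, because an exact permutation test on 3 libraries per genotype cannot give a p-value under 0.1. In WT LSECs the ranges of *Rspo3* and *Wnt2* overlapped, with *Wnt2* the higher in each library. In *Txnip*-/- LSECs *Rspo3* was the higher in replicates 1 and 2, and in replicate 3 their levels were 22.6 and 22.9 CPM.

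The surface proteins of pericentral LSECs come next. *Kit* encodes a receptor tyrosine kinase for stem cell factor and lies on chromosome 5 from 75574916 to 75656722 on the plus strand. Its counts were 921, 969 and 916 (*Txnip*-/-) and 1194, 1181 and 1057 (WT). Scaled to CPM, *Txnip*-/- LSECs spanned 97.9 to 103 and WT LSECs 112 to 116, without overlap. The difference was small, with 99.85 ± 2.62 against 113.5 ± 2.38 CPM and a log2 fold change of -0.19 (95% interval -0.39 to 0.018), and did not pass the threshold (adjusted p = 0.487, edgeR). *Cdh13* encodes T-cadherin, a cadherin anchored to the membrane by a lipid, and lies on chromosome 8 from 118283733 to 119324921 on the plus strand. Its counts were 121, 56 and 45 for *Txnip*-/- against 61, 17 and 60 for WT. *Txnip*-/- replicate 1 was high and WT replicate 2 was low, and the other 4 libraries lay between 45 and 61 counts. The log2 fold change of 0.79 had a 95% interval from -0.23 to 1.81 (adjusted p = 0.58, edgeR), and it was 0.19 without *Txnip*-/- replicate 1 and 0.38 without WT replicate 2.

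*Fabp4* encodes an intracellular carrier of fatty acids in adipocytes, macrophages and endothelial cells. It lies on chromosome 3 from 10204088 to 10208576 on the minus strand. It was the most abundant of the 10 genes and held rank 43 by level among all genes tested. Its counts were 13906, 13012 and 14345 (*Txnip*-/-) and 16118, 17393 and 11731 (WT), so WT replicate 3 was the lowest and the other WT libraries the highest of the 6. The level was 1471 ± 126 CPM for *Txnip*-/- and 1489 ± 219 CPM for WT, with a log2 fold change of -0.018 (95% interval -0.22 to 0.19, adjusted p = 0.968, edgeR). This interval lies inside a change of 1.3-fold in either direction.

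**Figure D2:**
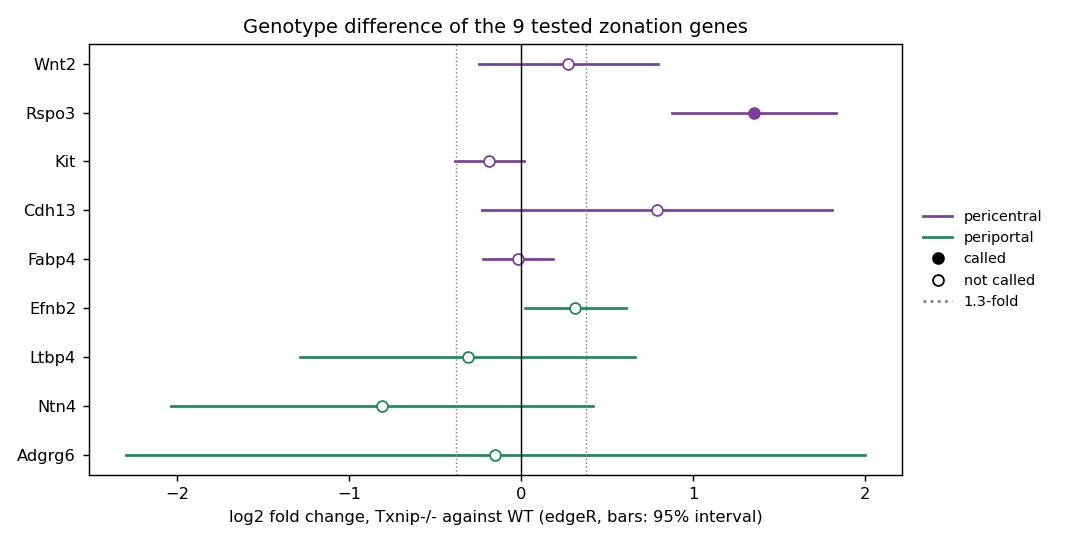
Log2 fold change of the 9 tested zonation genes, *Txnip*-/- against WT, with its 95% interval from edgeR (purple: pericentral, green: periportal, filled point: called). *Rspo3* is the filled point, at 1.35 with an interval from 0.88 to 1.83, and the intervals widen for the genes of few counts, widest of all for *Adgrg6*.

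Among the periportal genes, *Efnb2* encodes ephrin-B2, a membrane ligand known from arterial and periportal endothelium, and lies on chromosome 8 from 8617434 to 8661242 on the minus strand. Its counts were 527, 474 and 426 for *Txnip*-/- against 393, 426 and 415 for WT. In CPM all *Txnip*-/- libraries (45.5 to 58.8) lay above all WT libraries (38.3 to 43.9), with *Txnip*-/- replicate 1 the highest. The level was 50.9 ± 7.02 against 40.9 ± 2.84 CPM, a 1.24-fold difference with a log2 fold change of 0.32 (95% interval 0.021 to 0.61). Its unadjusted p in edgeR's fit was 0.0373, and it did not pass after adjustment over all genes (adjusted p = 0.389, edgeR).

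The other 3 periportal genes were low. *Ltbp4* encodes a matrix protein that binds latent TGF-β and lies on chromosome 7 from 27305136 to 27337692 on the minus strand. Its counts were 52, 38 and 17 (*Txnip*-/-) and 51, 52 and 41 (WT), and the log2 fold change of -0.31 (95% interval -1.29 to 0.66, adjusted p = 0.878, edgeR) became 0.020 without *Txnip*-/- replicate 3. *Ntn4* encodes netrin 4, a laminin-related protein of basement membranes, and lies on chromosome 10 from 93640681 to 93747207 on the plus strand. Its counts were 12, 26 and 16 for *Txnip*-/- against 37, 19 and 44 for WT, which overlap through the replicates numbered 2 (log2 fold change -0.81, 95% interval -2.04 to 0.42, adjusted p = 0.664, edgeR). *Adgrg6* encodes an adhesion G protein-coupled receptor and lies on chromosome 10 from 14402583 to 14545659 on the minus strand. It had 6, 0 and 17 counts for *Txnip*-/- against 12, 11 and 5 for WT, and no direction could be read from them (log2 fold change -0.15 with a standard error of 1.02, adjusted p = 0.973, edgeR). As a ratio of *Txnip*-/- to WT the 95% intervals ran from 0.410 to 1.58 for *Ltbp4*, from 0.244 to 1.34 for *Ntn4* and from 0.203 to 4.0 for *Adgrg6*. Changes within these ranges could not be told from no change with these libraries.

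By level, *Fabp4* stood above *Kit*, *Kit* above *Efnb2*, and *Efnb2* above the remaining 7 genes in each of the 6 libraries. *Wnt2* and *Rspo3* followed, then *Cdh13*, *Ltbp4* and *Ntn4*. Neighbours among these last 3 overlapped in their ranges within each genotype, and by mean *Adgrg6* and *Wnt9b* were the lowest. Summed over the 6 pericentral genes, the level was 1476 to 1709 CPM in the *Txnip*-/- libraries and 1376 to 1800 CPM in the WT libraries, of which *Fabp4* made up most. Without *Fabp4* the sums were 148 to 156 CPM and 135 to 151 CPM. The 4 periportal genes summed to 50.9 to 66.7 CPM for *Txnip*-/- and 48.0 to 53.4 CPM in WT LSECs. The ranges of the 2 genotypes overlapped for each of these sums, on which no test was run.

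Markers of other liver cells moved with the genotype and are given beside *Rspo3*, because stellate cells can express it too. Of 13 stellate cell markers, 11 were tested and 10 of these had a higher mean in *Txnip*-/- LSECs. Of the 11, 2 were called, beside 1.44% of all genes tested. *Dcn*, a matrix proteoglycan gene, rose from 15.4 to 30.6 CPM (log2 fold change 0.99, adjusted p = 0.00497, edgeR), and *Acta2*, the gene of smooth muscle actin, from 5.22 to 14.4 CPM (log2 fold change 1.47, adjusted p = 0.00677, edgeR). With WT replicates 1 and 2 left out neither was called, at log2 fold changes of 1.05 for *Dcn* and 1.21 for *Acta2* (adjusted p = 0.0859 and 0.213, edgeR). *Acta2* was also not called without WT replicate 1 alone, at 1.37 (adjusted p = 0.0547, edgeR). The 13 markers summed to 69.3 to 89.3 CPM in the *Txnip*-/- libraries and 50.1 to 56.2 CPM in the WT libraries. *Dcn* and *Acta2* made up most of this difference. *Ecm1*, the most abundant of the other markers, had 15.6 CPM for *Txnip*-/- and 19.2 CPM for WT (log2 fold change -0.30, adjusted p = 0.698, edgeR). None of the 13 was at 0 in all libraries. *Lrat*, which defines quiescent stellate cells, had 19, 8 and 12 counts against 9, 0 and 0. In bulk RNA fewer cells of a type and less RNA per cell cannot be told apart, and the part of stellate cell RNA in the *Rspo3* difference was not tested.

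Kupffer cell markers moved the other way, with 7 of 8 tested markers called lower and none higher, beside 1.44% of all genes tested. Their summed levels were 225 to 246 CPM for *Txnip*-/- and 549 to 577 CPM in WT libraries. *Fabp4*, which macrophages also express, had a log2 fold change of -0.018 in the same libraries. Of 7 mast cell markers, given because mast cells express *Kit*, 5 were at 0 in every library, *Tpsb2* had 1 count in all, and *Hdc*, which is not restricted to mast cells, held the rest. Of 12 hepatocyte markers 7 were tested and 0 were called in edgeR's test (2 at an unadjusted p under 0.05, and 0 called by DESeq2 or limma-trend), with a median log2 fold change of 0.63. Their sums, 329 to 356 CPM for *Txnip*-/- and 351 to 401 CPM in WT libraries, overlapped. They were made up mostly of *Glul* (286 and 326 CPM, log2 fold change -0.19, adjusted p = 0.407, edgeR). The sums therefore mostly follow *Glul*. Of the 7 tested, 4 had a higher and 3 a lower log2 fold change, and the median is the value of *Apoa1*. *Apoa1*, a plasma apolipoprotein gene, had 13.3 and 8.60 CPM (log2 fold change 0.63, adjusted p = 0.346, edgeR), and *Alb*, the albumin gene, 20.3 and 22.4 CPM. Of 10 arterial and large-vessel markers, 5 were tested and 0 were called (1 at an unadjusted p under 0.05, and 1 called by DESeq2). Their sums, 1775 to 1866 CPM for *Txnip*-/- and 1801 to 2037 CPM in WT libraries, were nearly all *Edn1*, the endothelin 1 gene (1776 and 1884 CPM). Of the 5 tested, 2 had a higher and 3 a lower log2 fold change. *Ly6a* had 32.4 and 20.8 CPM without overlap (log2 fold change 0.64, adjusted p = 0.0787, edgeR). *Cd34* went the other way, with 6.19 CPM for *Txnip*-/- and 9.79 CPM for WT and overlapping libraries (log2 fold change -0.66, adjusted p = 0.481, edgeR). *Edn1* had a log2 fold change of -0.086 (adjusted p = 0.715, edgeR). By qRT-PCR, a different assay, the study reported *Edn1* and *Cd34*, its capillary endothelial markers, as higher in *Txnip*-deficient LSECs. The arterial genes *Gja5* and *Sema3g* had at most 1 count in any library. Of 6 cholangiocyte markers 2 were tested and 0 called (0 at an unadjusted p under 0.05 in edgeR, and 0 by DESeq2 or limma-trend), and all 6 lymphocyte markers were below the filter.

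**Figure D3:**
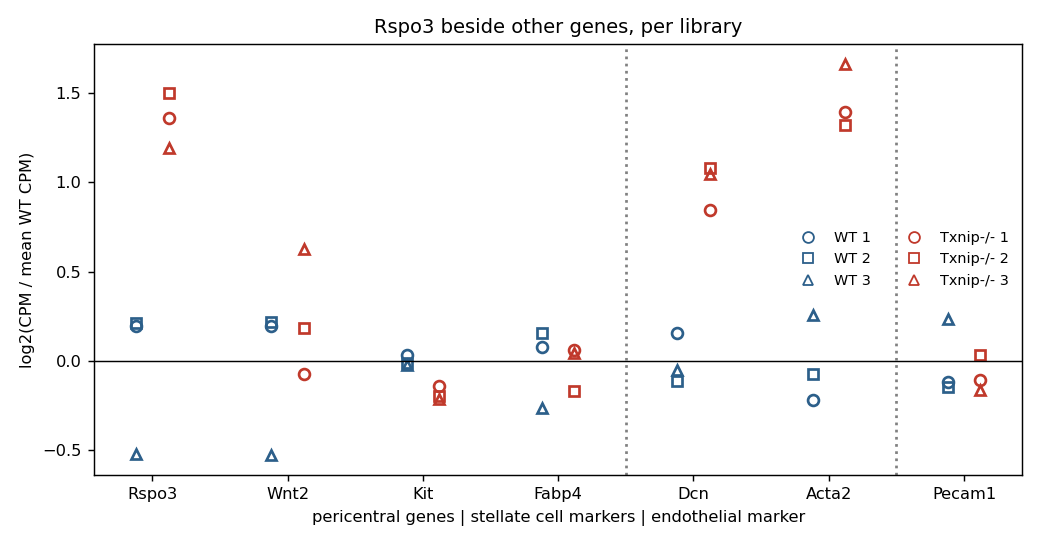
Log2 ratio of each library's CPM to the WT mean for 4 pericentral genes, 2 stellate cell markers and the endothelial marker *Pecam1* (blue: WT, red: *Txnip*-/-, symbol shape: replicate number). The *Txnip*-/- libraries stand above the WT libraries for *Rspo3*, *Dcn* and *Acta2*, and among the WT libraries replicate 3 is the lowest for *Rspo3* and *Wnt2* but not for *Dcn* or *Acta2*.

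Other zonation genes gave 1 call among 6 tested, beside 1.44% of all genes tested. *Msr1*, a scavenger receptor gene that is higher in periportal LSECs and is also a macrophage gene, fell in *Txnip*-/- LSECs. Its counts were 143, 186 and 146 (*Txnip*-/-) and 382, 348 and 330 (WT), without overlap (16.9 against 35.1 CPM, log2 fold change -1.06 with a standard error of 0.17, adjusted p = 0.00174, edgeR). With WT replicates 1 and 2 left out its adjusted p was 0.0679. The Kupffer cell markers given above fell in the same libraries, and their part in this was not tested. *Thbd*, the thrombomodulin gene of pericentral endothelium, had 215 and 217 CPM (log2 fold change -0.012, adjusted p = 0.98, edgeR). *Dkk3*, another gene of the pericentral list and named after its values were seen, had 1.63 and 4.66 CPM without overlap (log2 fold change -1.49, adjusted p = 0.454, edgeR). *Jag1*, a Notch ligand gene of the portal side, had 31.3 and 26.5 CPM (log2 fold change 0.24, adjusted p = 0.597, edgeR).

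The rest of the Wnt pathway was taken from a list of 86 further genes, of which 39 passed the filter on low counts. Of these 1 was called, beside 1.44% of all genes tested, and 6 had an unadjusted p under 0.05 (16 higher and 23 lower, median log2 fold change -0.047). Among 17 other Wnt ligand genes, 8 had no count in any library and *Wnt9a* alone passed the filter, with 6.59 CPM for *Txnip*-/- and 6.30 CPM in WT LSECs. No other R-spondin gene passed it, *Rspo1* being the highest with at most 4 counts in a library. *Rspo3* was thus the only R-spondin gene above the filter in these libraries. *Wls*, needed to carry Wnt ligands to the cell surface, had 78.8 and 80.9 CPM (adjusted p = 0.952, edgeR).

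On the receiving side, 0 of 11 tested receptor genes and 0 of 3 tested R-spondin receptor and ligase genes were called in edgeR's test, with 1 gene of each group at an unadjusted p under 0.05 and 0 called by DESeq2 or limma-trend. *Ryk*, the most abundant receptor gene, had 91.4 and 94.3 CPM. *Sdc4*, a heparan sulfate proteoglycan gene whose product can bind R-spondins, had 26.8 CPM for *Txnip*-/- and 18.6 CPM for WT (log2 fold change 0.53, adjusted p = 0.305, edgeR). *Lgr5*, a receptor for R-spondins, had at most 6 counts. Of the Wnt inhibitor list 3 of 13 genes were tested and 0 called by any of the 3 tools (1 at an unadjusted p under 0.05 in edgeR). *Frzb*, a secreted antagonist of Wnt, had 3.98 against 8.73 CPM (log2 fold change -1.14, adjusted p = 0.224, edgeR). *Kremen1*, a co-receptor of Dickkopf antagonists, had 13.2 against 19.4 CPM (log2 fold change -0.56, adjusted p = 0.455, edgeR).

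Inside the cell, 0 of 14 tested cascade genes were called by any of the 3 tools (1 at an unadjusted p under 0.05 in edgeR). *Ctnnb1*, the β-catenin gene, lies across an exon of *Ulk4* at its 3′ end and had 525 and 540 CPM (log2 fold change -0.040, adjusted p = 0.909, edgeR). *Tcf7l1*, a transcription factor gene of the pathway, had 70.9 against 87.9 CPM (log2 fold change -0.31, adjusted p = 0.27, edgeR). Of 11 target genes 5 were tested and 1 was called, beside 1.44% of all genes tested. *Ccnd1*, the cyclin D1 gene, rose from 97.4 to 131 CPM (log2 fold change 0.43 with a standard error of 0.10, adjusted p = 0.0395, edgeR). It was no longer called when any 1 of the 6 libraries was left out, with adjusted p-values from 0.0484 to 0.203 (edgeR), the lowest of them at a fold change under 1.3. An exon of *LTO1* lies across the 3′ end of *Ccnd1* on the other strand. *Nkd2*, a feedback inhibitor gene, had 25.0 against 18.3 CPM (log2 fold change 0.45, adjusted p = 0.34, edgeR). *Sox17*, the most abundant gene of the target list and a transcription factor of endothelium, had 306 and 335 CPM (adjusted p = 0.613, edgeR), and *Axin2*, a widely used reporter of Wnt signalling, had 0 counts in each *Txnip*-/- library and 2, 0 and 13 in the WT libraries.

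**Figure D4:**
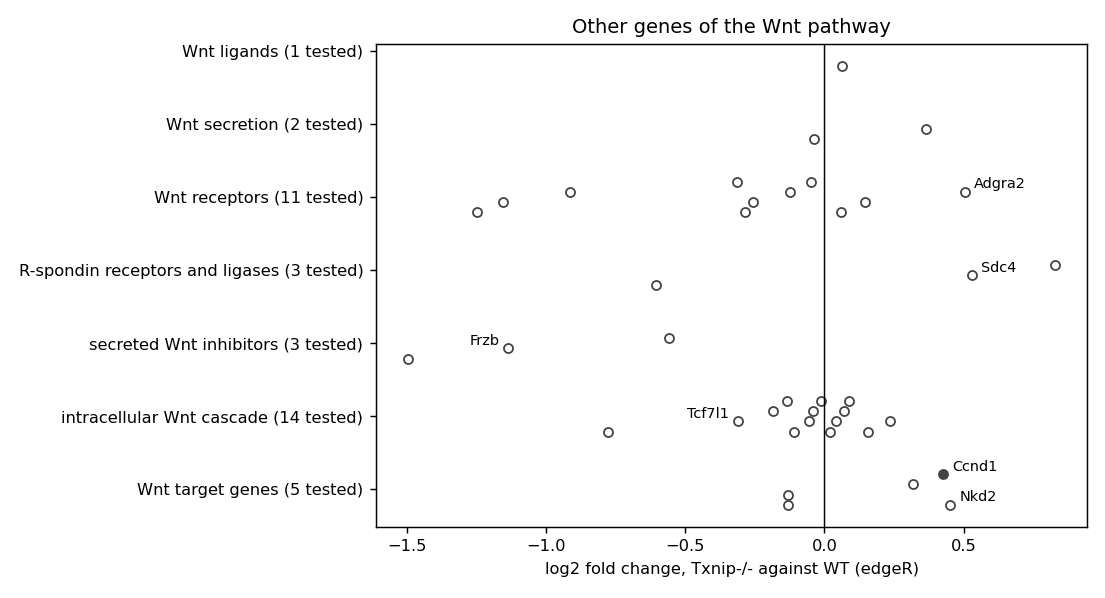
Log2 fold change, *Txnip*-/- against WT, of the tested genes in 7 groups of the Wnt pathway, the zonation genes left out (each point a gene, filled where called, named where the unadjusted p was under 0.05). *Ccnd1* at 0.43 is the filled point, and the 3 tested genes of the inhibitor list lie below 0.

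To see which genes followed the same pattern over the 6 libraries, Pearson's r of log2 CPM was taken with every gene tested. Closest to *Rspo3* were *Neurl3* (r = 0.996), *Samd11* (0.993) and *Prkrir* (0.991). Of these *Neurl3* was called, with 57.0 CPM for *Txnip*-/- and 36.2 CPM in WT LSECs (adjusted p = 0.0193, edgeR), while *Samd11* and *Prkrir* had adjusted p-values of 0.0563 and 0.11 (edgeR). Closest to *Wnt2* were *Prrc2c* (r = 0.997), *Vprbp* (0.996) and *Rpl30* (0.993), with log2 fold changes from 0.11 to 0.23 and adjusted p-values from 0.669 to 0.824 (edgeR). These values rest on 6 libraries and were the highest among all genes tested, so they describe the pattern and carry no test. An exon of *Noc2l* lies across the 3′ end of *Samd11* on the other strand, and *Rpl30* shares sequence with several pseudogenes.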

How the data were processed

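RNA of LSECs was measured by QuantSeq 3′ mRNA-Seq in 3 *Txnip*-/- and 3 WT libraries. The authors aligned single-end reads with Bowtie2 and used Bedtools to count reads over genes, those with several alignments included. They deposited whole-number counts without normalization, and the submitters' processing notes name mm10. Versions, annotation and the use of strand are not given in the sources used here. Each file lists 23282 rows, 44 of which repeat a symbol and were kept apart, and none of the 10 genes is repeated. Total counts were 9147764 to 10193952 per library, and floors cover counting error only. The genotypes were compared with edgeR 4.0.16 under R 4.3.3 (filterByExpr, TMM, then the quasi-likelihood fit and F-test on genotype alone), and p-values were adjusted by Benjamini-Hochberg over all genes tested. A standard error is the absolute log2 fold change over the square root of F. DESeq2 1.42.0 and limma 3.58.1 were alternatives, and all 3 tests were tested on simulated data. The study's threshold of 1.3 was read as a fold change, and the reading as a log2 fold change was an alternative. Positions are those of GENCODE M21 (GRCm38, the assembly of mm10). In the last 500 bases of the transcript used, none of the 10 genes overlapped an exon of another gene or shared a stretch of 75 bases with another gene's transcripts. The members and lists were chosen with earlier results of these data known. Genes named from the lists were those called, the next 4 by unadjusted p and the highest of each list. *Axin2* and *Lgr5* were named after their values were seen. Libraries of the same replicate number showed no shared deviation from their genotype means (correlations -0.030, 0.017 and -0.047). This cannot exclude that they were prepared together, and the labels do not say.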

Additional observations from a re-analysis of the deposited data

How the results depend on the processing

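*Rspo3* kept its call in all 16 alternative fits, including the replicate block (log2 fold change 1.38), and no other of the 10 genes was called in any. The replicate block also ended the call of *Stab1* (log2 fold change -0.46, adjusted p = 0.0507, edgeR). The log2 fold change changed sign for *Fabp4* with WT replicates 1 and 2 both left out (0.25) and ranged from -0.13 to 0.066 with single libraries left out, for *Ltbp4* (-0.74 to 0.020) and for *Adgrg6* (-1.45 to 0.44, and 0.63 without both WT replicates). Of the list genes, *Thbd* (-0.13 to 0.070, and 0.10 without both), *Wnt9a* (-0.29 to 0.33, and -0.019 with no normalization factors), *Wls* (-0.18 to 0.081), *Ryk* (-0.18 to 0.031) and *Ctnnb1* (0.016 without both) changed sign. Over all genes 167 were called. There were 252 with DESeq2, 301 with no filter, 108 with the replicate block, 57 at a log2 fold change above 1.3, 107 without WT replicates 1 and 2, and 89 to 301 with single libraries left out, 301 of them without WT replicate 3 (147 shared with the 167). The Wnt list had 0 calls with no normalization factors, the replicate block, any library or both WT replicates left out, and the log2 threshold, and the other zonation genes had 0 calls in the last 2 of these. The cause of these changes was not tested. Where WT replicates 1 and 2 are left out, the lone WT library is assumed to vary like the others. *Wnt9b*, *Adgrg6*, *Ntn4* and *Ltbp4* had at most 52 counts in a library. For those tested, the parts of depth and of spread between libraries in their wide intervals were not tested.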

Other observations

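Of the Wnt inhibitor list, the 3 genes above the filter were lower in all *Txnip*-/- libraries than in all WT libraries, beside 17.4% of all genes tested whose genotypes did not overlap in either direction, and none was called. Besides *Frzb* and *Kremen1*, this was *Dkk3*, the gene also listed as pericentral, with 0, 25 and 22 counts for *Txnip*-/- against 42, 46 and 52 for WT (log2 fold change -1.49 with a standard error of 0.73, adjusted p = 0.454, edgeR). Without *Txnip*-/- replicate 1, which had no count of *Dkk3*, the log2 fold change of *Kremen1* was -0.25. The 13 genes of that list summed to 11.7 to 24.5 CPM in *Txnip*-/- and 28.7 to 35.9 CPM in WT LSECs. *Wnt2b*, also named after its values were seen and below the filter on low counts, had 6, 17 and 5 counts for *Txnip*-/- against 2, 4 and 2 for WT. *Dll4*, a Notch ligand gene of the portal side that was also named after its values were seen, had 52, 45 and 12 counts against 62, 82 and 57 (log2 fold change -0.77, adjusted p = 0.568, edgeR).

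Promoter sequences of RefSeq (GRCm38.p6, a short window around the start) were matched by symbol for 7 of the 10 genes, and those of *Rspo3*, *Cdh13* and *Fabp4* were not searched. Of 5 motifs searched on both strands, TGANTCA for AP-1, CTTTGAT for TCF/LEF factors and AGATAA for the factors of the GATA family were found in none of the 7 and in 7.81%, 3.73% and 11.2% of all promoters. The RBPJ motif (GTGGGAA, 6.38% of all promoters) was found in that of *Ntn4*, and the MAF motif (TGCTGA, 19.5%) in that of *Wnt9b*. These matches describe the letters in these windows.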
